A study of Homo sapiens with 114 samples.

Results

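The comparison described here set HK-2 cells exposed for 12 h to the compound labelled CdCl directly against HK-2 cells exposed for 12 h to the compound labelled Di. HK-2 is an immortalized line of human renal proximal tubular epithelial cells. The arrays were taken by their labels, which gave 3 CdCl arrays and 3 Di arrays at 12 h out of the 38 groups of 3 arrays in the whole series. The labels name no dose for either compound and spell out neither abbreviation, so both are used here as written.

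All cultures were seeded 24 h before exposure, were close to confluence at exposure, and grew in a serum-free DMEM and Ham's F12 mixture with EGF, hydrocortisone, insulin, transferrin and selenite. The 3 control cultures at 12 h received vehicle and are named by their labels as controls of CdCl and of Di together. The same layout was repeated at 48 h, with 3 CdCl, 3 Di and 3 control arrays. Replicates are labelled biological, but nothing says whether they came from separate passages of the line, so p-values measure the spread between these cultures. That spread was estimated for each gene over all 18 arrays of CdCl, Di and control at both times. Total RNA was measured on Affymetrix arrays, and every value below is a GCRMA log2 value of 1 probe set per gene, so that a difference of 1 is a doubling.

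Several stress programmes are read out in such a comparison. Metallothioneins are small cysteine-rich proteins that bind zinc, copper and cadmium, and their transcription is driven by the metal-sensing factor MTF1 through metal response elements. HSF1 drives heat shock genes when proteins misfold, NRF2 drives antioxidant and detoxification genes when electrophiles or oxidants modify its inhibitor KEAP1, and ATF4 drives amino acid and stress genes after phosphorylation of eIF2alpha. The renal proximal tubule is a main site of metal uptake and of drug injury in the body, and metallothionein is one of its long-known metal-binding proteins.

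The promoters of metallothionein and heat shock genes carry the sequences that these factors read, and 5 of them are shown because the largest differences of the comparison include their gene families. Each is the 250 bases before the annotated start, 5′ to 3′ on the gene's strand, from RefSeq on build GRCh38.p14. In the MT2A, MT1X and MT1H windows capitals mark the metal response core, written TGCGCNC or TGCACNC and searched on both strands.
MT2A, chr16:56608334-56608583, plus strand: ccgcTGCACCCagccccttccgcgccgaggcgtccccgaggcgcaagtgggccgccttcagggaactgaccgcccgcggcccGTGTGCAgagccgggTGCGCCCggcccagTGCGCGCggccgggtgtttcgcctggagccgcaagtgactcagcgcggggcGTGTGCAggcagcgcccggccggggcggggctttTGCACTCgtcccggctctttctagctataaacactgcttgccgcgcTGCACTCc
MT1X, chr16:56682220-56682469, plus strand: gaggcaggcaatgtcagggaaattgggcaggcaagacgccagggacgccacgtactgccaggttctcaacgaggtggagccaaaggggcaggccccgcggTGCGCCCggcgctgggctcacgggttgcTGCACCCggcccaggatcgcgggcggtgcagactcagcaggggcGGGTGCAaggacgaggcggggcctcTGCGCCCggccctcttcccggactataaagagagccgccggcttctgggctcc
MT1H, chr16:56669564-56669813, plus strand: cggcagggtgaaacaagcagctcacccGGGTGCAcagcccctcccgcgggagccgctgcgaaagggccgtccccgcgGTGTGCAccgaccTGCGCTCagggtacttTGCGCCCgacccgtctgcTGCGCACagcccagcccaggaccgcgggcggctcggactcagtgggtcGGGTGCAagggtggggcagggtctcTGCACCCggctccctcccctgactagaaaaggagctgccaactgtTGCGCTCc
The MT2A window held 7 matches, the MT1X window 4 and the MT1H window 8. Of 35116 promoter windows of this length in the RefSeq table, 24.8% held at least 1 match and 0.37% held at least 4.

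In the HSPA6 and ZFAND2A windows capitals mark paired units of the heat shock element, written GAANNTTC or TTCNNGAA, each of which is its own reverse complement. Overlapping matches were counted separately.
HSPA6, chr1:161524290-161524539, plus strand: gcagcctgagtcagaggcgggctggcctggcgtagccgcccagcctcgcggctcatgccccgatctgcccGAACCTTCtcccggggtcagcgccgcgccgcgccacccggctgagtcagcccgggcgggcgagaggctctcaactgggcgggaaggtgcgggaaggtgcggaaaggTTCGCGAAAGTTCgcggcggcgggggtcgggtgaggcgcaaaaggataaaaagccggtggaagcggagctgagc
ZFAND2A, chr7:1160197-1160446, minus strand: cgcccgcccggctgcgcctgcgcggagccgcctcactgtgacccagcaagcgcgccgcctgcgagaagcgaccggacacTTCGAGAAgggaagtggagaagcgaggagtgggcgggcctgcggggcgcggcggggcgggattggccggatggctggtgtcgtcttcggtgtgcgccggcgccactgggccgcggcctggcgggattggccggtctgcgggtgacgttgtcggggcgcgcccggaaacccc
The HSPA6 window held 3 matches, of which 2 overlap, and the ZFAND2A window held 1. Over all windows, 11.6% held at least 1 and 0.145% at least 3. Among the heat shock proteins and cofactors tested, 21 had an entry in the table and 13 of them held a match. These matches describe letters and were not measured as binding.

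The arrays of 1 group correlated with each other at r between 0.9852 and 0.9954 over all genes, and replicate 2 of Di stood slightly apart from its 2 partners. CdCl arrays correlated with Di arrays at r between 0.9536 and 0.9673, and with control arrays at r between 0.9542 and 0.9621, whereas Di arrays correlated with control arrays at r between 0.9811 and 0.9915. The signal of the ACTB 3′ probe set exceeded that of its 5′ probe set, an excess that grows as RNA integrity falls. It was 1.66 to 1.84 in CdCl, 1.23 to 1.55 in Di and 1.82 to 2.09 in controls on the log2 scale. For GAPDH the same difference lay between -0.10 and 0.18 on these arrays. The part of RNA integrity in the results was not tested. The epithelial keratin KRT18 lay between 12.0 and 12.6 on all CdCl and Di arrays and the brush border peptidase DPP4 between 11.1 and 11.9. Of 31 proximal tubule genes in the table only 12 passed the filter on low values, and the endocytic receptors LRP2 and CUBN, the water channel AQP1 and the transporters SLC34A1 and SLC22A6 did not, so much of the differentiated tubule programme was at background. No leukocyte marker passed the filter, 1 endothelial, 1 distal nephron and 3 fibroblast markers did, and none of those 5 differed between CdCl and Di. The fibroblast matrix genes DCN and LUM were well above the filter, with DCN at 12.0 to 12.3 in CdCl and 12.1 to 12.5 in Di.

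Of 11045 genes tested, 4539 differed between CdCl and Di at 12 h by limma at an adjusted p under 0.05, which is 41.1%. Of these, 1680 were higher in CdCl (15.2% of the genes tested) and 2859 were lower (25.9%). Large differences ran the other way: 520 genes were at least 2-fold higher in CdCl (4.71%) and 241 at least 2-fold lower (2.18%). The median difference over all genes tested was -0.10. Leaving out replicate 2 of Di gave 4356 calls, 1436 higher and 2920 lower. Fitting only the CdCl and Di arrays at 12 h gave 3499 calls, 1312 higher and 2187 lower. Fitting the arrays of all 38 groups in 1 model gave 2001 calls, 889 higher and 1112 lower.

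Against the shared controls the compounds differed in how many genes moved. With CdCl, 5383 genes differed from control (48.7%), 1598 higher (14.5%) and 3785 lower (34.3%). Of these, 490 were at least 2-fold higher (4.44%) and 540 at least 2-fold lower (4.89%). With Di, 1308 genes differed (11.8%), 399 higher (3.61%) and 909 lower (8.23%), with 21 at least 2-fold higher (0.19%) and 48 at least 2-fold lower (0.435%). Both of these comparisons use the same 3 control arrays. The Di count is the least stable value here: it was 599 without control replicate 2, 701 without control replicate 3, 203 when only Di and its controls were fitted, and 47 with all 38 groups in the model. After quantile normalization 42.4% of the Di calls were higher, against 30.5% as deposited. Of the 96 named genes, 19 lost their call between Di and control with all 38 groups in the model. With only Di and its controls fitted, 14 of them lost it. Changes of single genes between Di and control given below carry this limit.

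**Figure D1:**
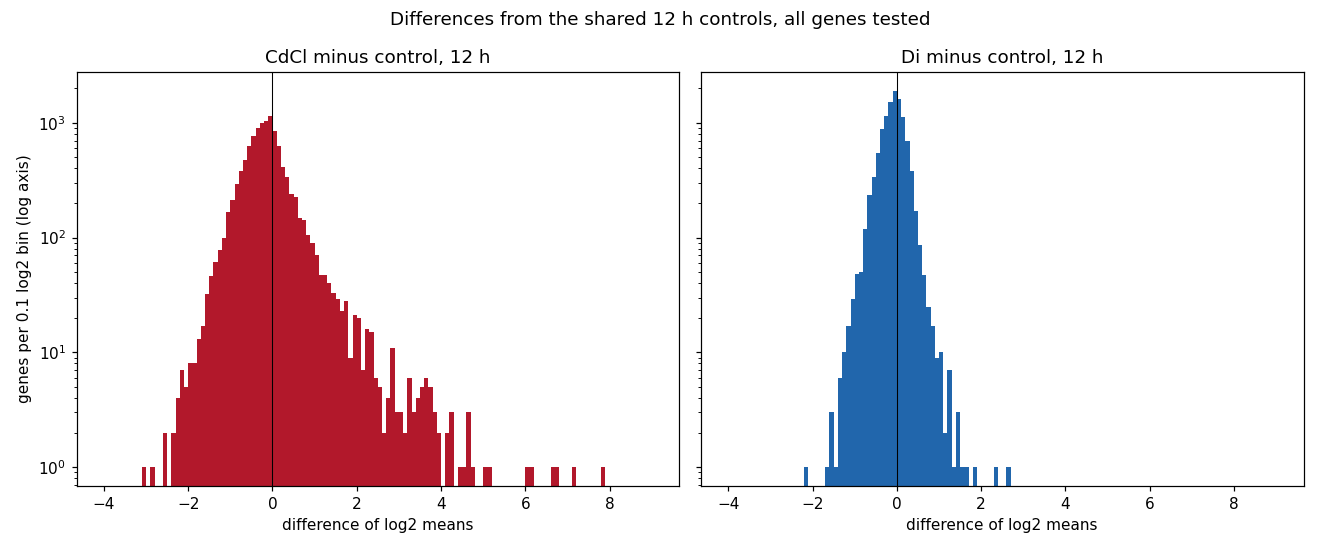
Distribution of differences from the shared 12 h controls, in log2 units on the horizontal axis and genes per bin on a logarithmic vertical axis, for CdCl on the left and Di on the right over the 11045 genes tested. The CdCl histogram reaches past 7 on the positive side, where Di has no gene, and 1030 CdCl genes and 69 Di genes were called with a change of at least 2-fold.

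Metallothioneins were higher in CdCl than in Di without exception among those tested. All 7 were called, with a median difference of 1.68, and 0 of the 7 was called between Di and control. MT1M read 14.5, 14.4 and 14.5 on the CdCl arrays, against 9.76, 9.69 and 9.61 on the Di arrays and 9.78, 9.83 and 9.77 on the control arrays. The difference for MT1M was 4.78 (95% confidence interval 4.56 to 4.99, adjusted p = 5.37e-14), a fold of 27.4. MT1G read 14.7, 14.6 and 14.6 in CdCl, against 11.2, 11.3 and 11.2 in Di. For both genes the Di arrays lay at the level of the controls and every CdCl array lay far above them.

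The other members began from high readings. MT2A, whose promoter is shown above with 7 metal response cores, read 15.3 on each CdCl array and 14.2 on each Di array, a difference of 1.10 (0.97 to 1.24). MT1X read 15.3, 15.2 and 15.2 in CdCl, against 13.4, 13.8 and 13.4 in Di, a difference of 1.68. MT1F differed by 1.93, MT1H by 1.61 and MT1E by 1.18. These readings approach the top of the array's scale, and the part this plays in the smaller differences was not tested. Metallothionein transcripts are nearly identical, so the split between members is uncertain. When probe sets marked as shared between transcripts were left out, 1 member remained testable, and it was still higher.

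Some zinc transporters were also higher. SLC30A1, the zinc exporter of the plasma membrane and a known MTF1 target, read 13.9, 14.0 and 14.0 in CdCl, against 12.2, 12.0 and 12.3 in Di and 12.2, 12.3 and 12.2 in controls. Its difference was 1.78 (1.63 to 1.94, adjusted p = 9.84e-11). SLC30A2, which loads zinc into vesicles, read 10.8, 10.9 and 10.6 in CdCl, against 8.30, 8.24 and 8.17 in Di, a difference of 2.55 (2.20 to 2.89). SLC39A14, an importer of zinc, iron, manganese and cadmium, differed by 1.35. Across zinc and metal transporters 4 of 18 were higher and 2 lower, where 15.2% and 25.9% of all genes tested were. The other 12 were not called, and the list as a whole had a median difference of 0.12.

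**Figure D2:**
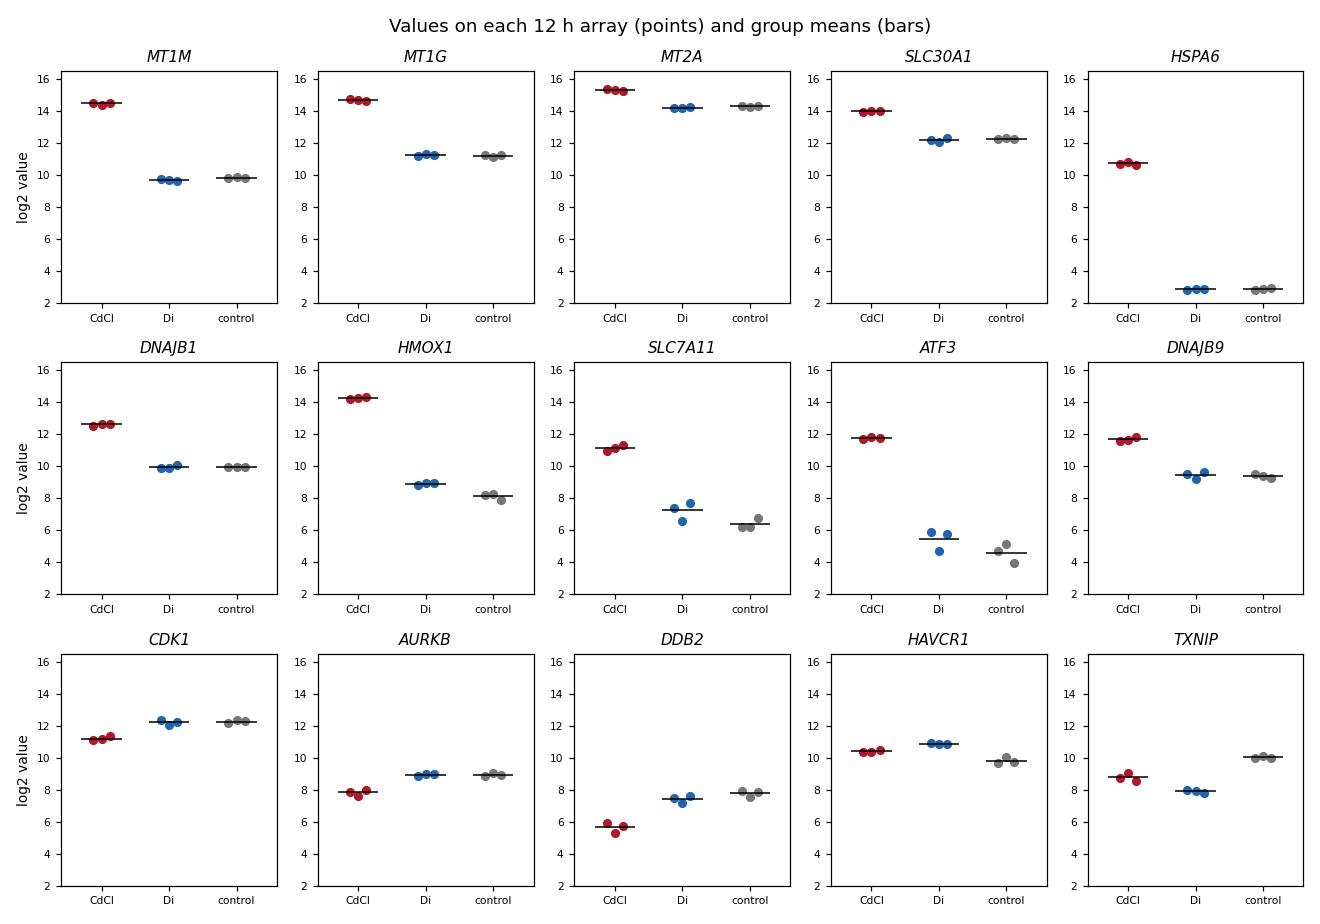
Log2 values of 15 genes on each 12 h array, with CdCl in red, Di in blue and control in grey from left to right, and black bars at the group means. The metallothioneins, the heat shock genes HSPA6 and DNAJB1 and the endoplasmic reticulum gene DNAJB9 are high in CdCl with Di close to control. The antioxidant genes HMOX1 and SLC7A11 are also high in CdCl, with Di above control by 0.76 and 0.84. HAVCR1 and TXNIP show Di apart from control as well.

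Heat shock genes gave the largest single difference between the compounds. HSPA6, a strictly inducible HSP70 that most unstressed cells do not express, read 10.7, 10.8 and 10.6 in CdCl, against 2.83, 2.86 and 2.83 in Di and 2.83, 2.86 and 2.90 in controls. Its difference of 7.87 (7.07 to 8.67, adjusted p = 5.26e-10) was the largest of all genes tested, a fold of 234. Since Di and control are at the array's background, the fold depends on that floor. ZFAND2A, an arsenite-inducible adaptor of the proteasome and a target of HSF1, read 13.8, 13.8 and 13.9 in CdCl, against 7.61, 7.69 and 7.63 in Di. Its difference was 6.17 (5.87 to 6.48), with little spread within either group.

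Of 26 heat shock proteins and cofactors tested, 22 were higher in CdCl, 2 were lower and 2 were not called, with a median difference of 0.86. BAG3, the HSP70 cochaperone of selective autophagy, read 12.6, 12.8 and 12.8 in CdCl, against 9.83, 9.73 and 9.66 in Di, a difference of 3.00 (2.80 to 3.19). DNAJB1, an HSP40 that delivers clients to HSP70, read 12.5, 12.6 and 12.7 in CdCl, against 9.92, 9.90 and 10.1 in Di, a difference of 2.66. For both genes the Di arrays lay at the level of the controls. HSPA1L, which is close in sequence to other HSP70 genes, differed by 3.51. HSP90AB1, the constitutive cytosolic HSP90, was called in both compounds against control, at 1.25 for CdCl and 0.79 for Di, while the direct difference of 0.45 did not pass (adjusted p = 0.0743), though it passed in 4 of 15 alternatives.

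Genes under NRF2 were higher in CdCl for 27 of 31 members, lower for 1 and not called for 3, with a median difference of 0.90. HMOX1, the heme oxygenase that degrades heme to biliverdin, carbon monoxide and iron, read 14.2, 14.3 and 14.3 in CdCl, against 8.81, 8.93 and 8.93 in Di and 8.20, 8.29 and 7.90 in controls. The difference was 5.37 (5.16 to 5.58, adjusted p = 2.43e-14). Di raised HMOX1 over control too, by 0.76, far less than the 6.14 with CdCl. SLC7A11, the cystine importer that feeds glutathione synthesis, read 10.9, 11.2 and 11.3 in CdCl, against 7.42, 6.61 and 7.68 in Di and 6.21, 6.23 and 6.76 in controls. It rose with both compounds over control, by 4.74 with CdCl and 0.84 with Di, and differed directly by 3.90.

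AKR1B10, an aldo-keto reductase, and ABCC2, the apical pump for glutathione conjugates, were near the array's background with Di and well above it with CdCl. AKR1B10 read 6.94, 7.25 and 6.74 in CdCl, against 2.33, 2.34 and 2.41 in Di, a difference of 4.62. ABCC2 read 6.67, 6.59 and 6.33 in CdCl, against 2.36, 2.80 and 2.35 in Di, a difference of 4.03. For each of them Di was at the level of control. Of the NRF2 members, 6 were higher and 1 lower in Di than in control, where 3.61% and 8.23% of all genes tested were. The antioxidant response core, written TGACNNNGC and searched on both strands of the 250 bases before the start, was held by 6 of the 25 members with a promoter entry and by 10.9% of all windows.

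Targets of ATF4 and chaperones of the endoplasmic reticulum that differed were mostly higher in CdCl. Of 35 ATF4 targets 20 were higher in CdCl, 1 was lower and 14 were not called (median difference 0.59), and of 22 endoplasmic reticulum chaperones 20 were higher and 0 lower (median difference 1.18). ATF3, a stress-induced repressor and activator of the same family, read 11.7, 11.8 and 11.8 in CdCl, against 5.88, 4.69 and 5.79 in Di and 4.68, 5.16 and 3.98 in controls. Its difference was 6.31 (5.73 to 6.90, adjusted p = 2.05e-10). PPP1R15A, which directs the phosphatase that reverses eIF2alpha phosphorylation, differed by 3.20, and STC2, a secreted stanniocalcin, by 3.74. The transcript of ATF4 itself read 12.0, 12.1 and 12.2 in CdCl, against 11.9, 12.0 and 11.9 in Di and 11.6 on all controls. ATF4 was above control with both compounds, by 0.49 with CdCl and 0.32 with Di, and its direct difference of 0.17 did not pass (adjusted p = 0.0915).

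Among the chaperones, DNAJB9, a cochaperone of BiP, read 11.6, 11.6 and 11.8 in CdCl, against 9.49, 9.20 and 9.61 in Di, a difference of 2.25 (2.02 to 2.49). SDF2L1, another partner of BiP, differed by 1.96, and ERO1B, an oxidase of protein disulfide isomerases, by 1.75. HERPUD1, a component of endoplasmic reticulum-associated degradation, differed by 2.02 on the probe set used. Its other probe set did not exceed log2 4 on at least 3 of the 6 arrays, so this value has no second probe set beside it.

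**Figure D3:**
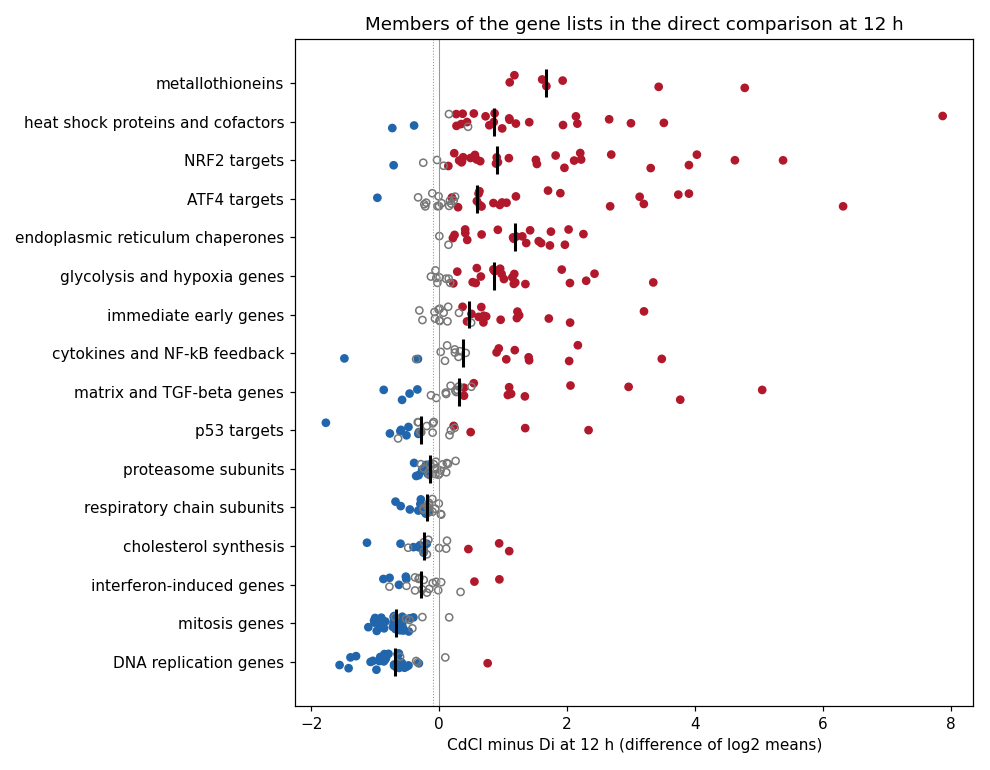
Difference of log2 means, CdCl minus Di at 12 h, for each tested member of 16 gene lists; filled points passed the test (red higher, blue lower in CdCl), open grey points did not, black bars are list medians and the dotted line is the median of all genes tested. All 7 metallothioneins and 20 of 22 endoplasmic reticulum chaperones lie to the right as called points, and 29 of 34 DNA replication genes lie to the left as called points.

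Immediate early genes, transcription factors and feedback regulators switched on within minutes of many signals, were higher in CdCl for 15 of 28 members and lower for 0. MAFF, a small Maf protein, read 13.3, 13.4 and 13.5 in CdCl, against 10.3, 10.0 and 10.3 in Di, a difference of 3.20 (3.01 to 3.39). JUN read 11.1, 10.98 and 11.1 in CdCl, against 9.71, 9.84 and 9.88 in Di, a difference of 1.25. FOS ran otherwise: it read 4.35, 4.45 and 3.99 in CdCl, against 4.85, 4.32 and 4.42 in Di and 3.62, 3.69 and 3.85 in controls. Both compounds raised FOS over control, by 0.55 with CdCl and 0.81 with Di, and the direct difference of -0.26 did not pass (adjusted p = 0.205). All these FOS readings lay between 3.62 and 4.85, near the filter of log2 4.

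Of 20 cytokines and NF-kB feedback genes 9 were higher in CdCl, 2 were lower and 9 were not called. TNFAIP3, the A20 protein that dampens NF-kB, read 9.31, 9.53 and 9.57 in CdCl, against 6.75, 5.61 and 5.62 in Di, a difference of 3.48 (2.99 to 3.97). IL6 read 7.77, 7.87 and 8.11 in CdCl, against 5.79, 5.97 and 5.49 in Di and 5.33, 5.05 and 4.78 in controls. Both compounds thus raised IL6, by 2.86 with CdCl and 0.70 with Di over control. The neutrophil chemokine CXCL5 differed by 2.03. CCL2, the monocyte chemokine, was opposite, at 5.19, 5.38 and 3.75 in CdCl, against 6.81, 5.81 and 6.14 in Di, a difference of -1.48 (-2.26 to -0.71) that did not pass when CdCl and Di were fitted alone (adjusted p = 0.0594) or with all 38 groups (adjusted p = 0.139). Without CdCl replicate 3 it was -0.97. Of 22 interferon-induced genes 2 were higher and 5 lower, where 15.2% and 25.9% of all genes tested were. Among them were IFIT2 at 0.94 and the oligoadenylate synthetase OAS3 at -0.87.

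Matrix and TGF-beta genes included 11 of 25 higher and 4 lower. MMP10, a stromelysin, read 7.21, 7.46 and 7.57 in CdCl, against 2.35, 2.38 and 2.36 in Di, a difference of 5.05. INHBA, the activin A subunit, read 8.89, 8.75 and 8.90 in CdCl, against 5.94, 5.94 and 5.78 in Di and 5.20, 5.33 and 5.24 in controls, a direct difference of 2.96. The collagenase MMP1 differed by 2.05. Among junction and polarity genes 8 of 25 were higher and 6 lower, where 15.2% and 25.9% of all genes tested were. The transcriptional repressors of E-cadherin SNAI2 and SNAI1 were higher by 3.32 and 1.70, and the basolateral polarity gene LLGL2 differed by -1.84. LLGL2 read 2.9, 2.6 and 2.7 in CdCl, at the array's background, and only 4.3, 5.1 and 4.3 in Di. SNAI2 read 5.94, 4.91 and 6.35 in CdCl, against 2.41, 2.44 and 2.41 in Di; the Di readings are at the array's background.

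Glycolysis and hypoxia genes were higher in CdCl for 22 of 30 members and lower for 0, with a median difference of 0.86. ADM, the vasodilator adrenomedullin, read 10.8, 10.8 and 10.97 in CdCl, against 7.40, 7.63 and 7.52 in Di, a difference of 3.35 (3.04 to 3.66). HK2, which phosphorylates glucose, read 10.6, 10.5 and 10.6 in CdCl, against 8.32, 8.10 and 8.33 in Di, a difference of 2.30. Of its 3 probe sets only this 1 exceeded log2 4 on at least 3 of the 6 arrays, and the mean over all 3 gave 0.42. PDK1, the kinase that limits entry of pyruvate into mitochondria, differed by 2.04. NDRG1, a stress- and hypoxia-responsive gene, differed by 2.43, and it was lower with Di than in control, with a difference of -0.34. The respiratory chain ran the opposite way, with 0 of 25 subunits higher and 12 lower in CdCl (median difference -0.19). Its largest falls were small: CYC1, of complex III, read 9.90, 9.87 and 9.95 in CdCl, against 10.6 on all Di arrays, and ATP5MC1, of the ATP synthase, differed by -0.60. Only 5 of the respiratory subunits passed when the CdCl and Di arrays were fitted alone, and 6 without CdCl replicate 3.

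The cell cycle was lower in CdCl. Of 34 DNA replication genes 29 were lower and 1 higher (median difference -0.69), and of 33 mitosis genes 27 were lower and 0 higher (median difference -0.68). ORC1, the largest subunit of the origin recognition complex, read 6.21, 6.08 and 6.02 in CdCl, against 7.93, 7.32 and 7.73 in Di and 7.86, 7.76 and 8.01 in controls. MCM10, which helps to fire origins, differed by -1.30 on the probe set used and by -0.04 on the probe set that remains without those marked as shared. AURKB, the kinase that corrects chromosome attachments, read 7.89, 7.61 and 8.004 in CdCl, against 8.84, 9.00 and 8.99 in Di, a difference of -1.11 (-1.35 to -0.86). CDK1 read 11.1, 11.2 and 11.4 in CdCl, against 12.4, 12.1 and 12.2 in Di, a difference of -1.01. For these 4 genes every CdCl array lay below every Di array, as 50.2% of all genes tested had groups that did not overlap in either direction.

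Between Di and control, 3 of 34 DNA replication genes and 6 of 33 mitosis genes were lower, where 8.23% of all genes tested were lower. TOP2A, the topoisomerase of dividing cells, was lower than control with both compounds, with differences of -0.67 for CdCl and -0.41 for Di, and its direct difference of -0.26 did not pass (adjusted p = 0.0745). It did pass in 5 of 15 alternatives, among them without Di replicate 2, and was -0.71 on the probe set that remains without those marked as shared. Fewer dividing cells and less RNA per cell cannot be told apart in these bulk samples. Without replicate 2 of Di, 28 replication and 29 mitosis genes were lower; with all 38 groups in the model, 23 and 14 were.

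The largest single falls included genes of replication and repair beside genes of other kinds. BLM, the Bloom syndrome helicase, read 3.36, 4.39 and 5.46 in CdCl, against 7.34, 7.00 and 6.88 in Di, a difference of -2.67 (-3.43 to -1.91). The CdCl arrays spread widely for BLM, and all lay below Di. The cell cycle repressor E2F8 differed by -1.96, the replication-associated protease FAM111B by -2.05, and the kinase NEK3 by -2.14. CCDC146, a centriole protein, had the largest fall, at 3.97, 4.16 and 4.35 in CdCl, against 7.28, 6.18 and 7.29 in Di, a difference of -2.76. PSMB8-AS1, a long noncoding RNA, differed by -2.69; whether its probe set reads its own strand alone was not examined here. The remaining genes among the 12 largest falls were CMPK2, DHRS11, OLFML2A, LINC00339, LLGL2 and TMEM39B, between -1.95 and -1.82.

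The other large rises belonged to no single list. ANKRD1, a mechanosensitive ankyrin repeat protein and YAP target, read 9.27, 9.17 and 9.39 in CdCl, against 2.34, 2.45 and 2.87 in Di, a difference of 6.72 (6.29 to 7.15). SPINK1, a secreted trypsin inhibitor, read 8.004, 7.78 and 7.89 in CdCl, against 3.29, 3.46 and 2.79 in Di. CLIP4 differed by 5.33, FILIP1L by 4.78, the long noncoding RNA NR2F1-AS1 by 4.75 and the elongation factor ELL2 by 4.62. Replicate 2 of Di read 5.17 for ELL2 where the other Di arrays read 7.53 and 7.52, and CdCl lay at 11.1 to 11.7. Clustered histone genes, whose normal transcripts lack a poly(A) tail, were higher for 5 of 8 members and lower for 2. H2AC6 read 7.77, 7.90 and 7.88 in CdCl, against 4.85, 3.47 and 5.11 in Di and 6.11, 5.75 and 5.36 in controls, so that CdCl was above and Di below control. H2BC4 differed by 1.89. Of 29 autophagy and lysosome genes 10 were higher and 2 lower, led by the autophagosome protein MAP1LC3B at 1.53 and the protease CTSL at 1.47.

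An injury gene and a death gene were above control with both compounds and averaged highest in Di. HAVCR1, which encodes the kidney injury molecule KIM-1, read 10.4, 10.4 and 10.5 in CdCl, against 10.9, 10.8 and 10.9 in Di and 9.65, 10.0 and 9.76 in controls. It was raised by both compounds over control, by 0.59 with CdCl and 1.06 with Di, and was lower in CdCl than in Di, with a difference of -0.47 (-0.76 to -0.19, adjusted p = 0.0102). BAX, the pro-apoptotic pore protein, read 7.11, 7.74 and 7.69 in CdCl, against 7.85, 8.35 and 8.28 in Di and 6.97, 6.86 and 6.49 in controls. It rose over control by 0.74 with CdCl and 1.39 with Di, and the direct difference of -0.64 did not pass (adjusted p = 0.0738). VCAM1, an adhesion molecule of injured tubules, was higher in CdCl by 1.13; without Di replicate 2 that call was lost. Of 16 kidney injury markers 4 were higher and 3 lower in CdCl, where 15.2% and 25.9% of all genes tested were.

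The p53 targets did not move as a group. Of 24 tested 4 were higher, 8 lower and 12 not called, with a median difference of -0.29. GADD45A, a growth arrest gene that ATF4 also controls, read 12.1, 12.2 and 12.5 in CdCl, against 9.90, 9.81 and 10.0 in Di and 9.39, 9.11 and 9.24 in controls. PMAIP1, the BH3-only protein NOXA, differed by 1.34. Both were raised over control by Di as well, GADD45A by 0.66 and PMAIP1 by 0.89. DDB2, a damage sensor of nucleotide excision repair, went the other way, at 5.92, 5.32 and 5.73 in CdCl, against 7.48, 7.20 and 7.60 in Di, a difference of -1.77 (-2.14 to -1.41). TXNIP, an inhibitor of thioredoxin and of glucose uptake, was chosen after its values were seen. It read 8.73, 9.07 and 8.55 in CdCl, against 7.99, 7.96 and 7.79 in Di and 10.0, 10.1 and 9.98 in controls, so that both compounds lowered it. The direct difference of 0.87 passed with all arrays (adjusted p = 0.0175) and not without CdCl replicate 2 or without Di replicate 3.

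Proteasome subunits were lower in CdCl than in Di for 9 of 27 members and higher for 0, with a median difference of -0.14. Over all genes tested 25.9% were lower and 15.2% higher, with a median of -0.10, so the lower count was not far from that share. Against control 7 of the 27 were higher with Di and 0 lower, where 3.61% and 8.23% of all genes tested were. With CdCl 4 were higher than control and 2 lower, where 14.5% and 34.3% of all genes tested were. PSMD3, a lid subunit, read 9.31, 9.36 and 9.19 in CdCl, against 9.43, 9.81 and 9.80 in Di, a difference of -0.39 that did not pass without CdCl replicate 3, Di replicate 2 or Di replicate 3. The ATPase subunit PSMC4 rose over control by 0.30 with CdCl and 0.31 with Di, and the direct difference was -0.01. The lower count fell to 2 when CdCl and Di were fitted alone and to 4 without Di replicate 3. Of 19 cholesterol synthesis genes 3 were higher and 8 lower, among them mevalonate kinase MVK at -1.13. Glutathione enzymes and thiol peroxidases had 3 of 26 higher and 7 lower, ribosome biogenesis genes 2 of 24 higher and 6 lower, and apoptosis regulators 4 of 20 higher and 4 lower, so none of these 3 lists departed far from the share of all genes called. Among proximal tubule genes 3 of 12 were higher and 5 lower, including DPP4 at 0.68, KRT8 at -0.40 and KRT18 at -0.37.

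At 48 h the same comparison gave 4703 called genes (42.6%), 2607 higher in CdCl (23.6%) and 2096 lower (19%). Of the 1680 genes higher in CdCl at 12 h, 573 were also higher at 48 h, 372 were lower and 735 were not called. Of the 2859 genes lower at 12 h, 601 were also lower at 48 h, 724 were higher and 1534 were not called. The change of the direct difference between the times was itself tested, and it passed for 4516 genes (40.9%), 1661 with a greater value at 12 h (15%) and 2855 with a greater value at 48 h (25.8%). Cells at the 2 times are separate cultures.

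The groups of genes differed in how they behaved over time. The 7 metallothioneins were higher in CdCl at both times, and the difference was greater at 48 h for each of them (7 of 7 passed the test of the time difference, median -1.96). MT1M differed by 4.78 at 12 h and by 7.50 at 48 h. It averaged 14.5 in CdCl at both times, against 9.69 at 12 h and 6.98 at 48 h in Di. Controls averaged 9.80 and 8.24 for MT1M. MT2A averaged 15.3 in CdCl at both times, against 14.2 and 12.5 in Di and 14.3 and 13.6 in controls. For these 2 genes the shift thus lay in the Di and control readings. SLC30A2 likewise differed by 2.55 at 12 h and 4.53 at 48 h, whereas the time difference of 0.19 for SLC30A1 did not pass. HSPA6 differed by 7.87 at 12 h and 2.45 at 48 h, while BAG3, at 0.12, and DNAJB1 were not called at 48 h. Of the NRF2 targets 1 was higher and 26 of 31 were lower in CdCl at 48 h. Of the ATF4 targets 1 was higher and 25 of 35 lower, so the direct difference of both lists was opposite to 12 h. AKR1B10 differed by 4.62 at 12 h and -2.63 at 48 h, and ATF3 by 6.31 at 12 h and -0.99 at 48 h. ATF3 averaged 11.8 and 12.1 in CdCl at 12 and 48 h, against 5.45 and 13.1 in Di and 4.61 and 10.1 in controls. HMOX1 averaged 14.3 and 14.4 in CdCl against 8.89 and 13.8 in Di, and was still higher in CdCl at 48 h, by 0.66. AKR1B10, by contrast, averaged 6.98 and 3.64 in CdCl, against 2.36 and 6.27 in Di.

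The direct difference of mitosis genes turned round as well, with 22 of 33 higher and 1 lower in CdCl at 48 h. Of the 33, 29 passed the test of the time difference. KIF20A, a kinesin of late mitosis, differed by -0.91 at 12 h and 3.24 at 48 h. It averaged 9.43 and 7.14 in CdCl at 12 and 48 h, against 10.3 and 3.90 in Di and 10.6 and 8.44 in controls. AURKB at 48 h averaged 6.43 in CdCl, 5.43 in Di and 6.97 in controls. For both genes CdCl thus averaged below control at 48 h, with Di lower still. Other genes with the greatest shift towards 48 h were CTHRC1, a secreted collagen-repeat protein, at -0.88 at 12 h (not called there without Di replicate 3) and 3.29 at 48 h, the phosphate and urate transporter SLC17A3 at 0.37 and 4.45, SOCS2, a feedback inhibitor of cytokine receptors, at 2.20 and 6.15, and the vesicle GTPase RAB39B at 0.50 and 4.36. The 12 h differences of SLC17A3 and RAB39B were not called. RAB39B read 2.45 to 3.29 on the CdCl and Di arrays at 12 h, at background, and 2.69 to 5.33 in Di at 48 h. MAP2, a microtubule-associated protein, shifted towards 12 h, with 4.07 at 12 h and -1.90 at 48 h, as did CLIP4, with 5.33 and -0.75. The direction at 48 h is that of CdCl relative to Di, and the Di cultures of the 2 times are separate too.

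**Figure D4:**
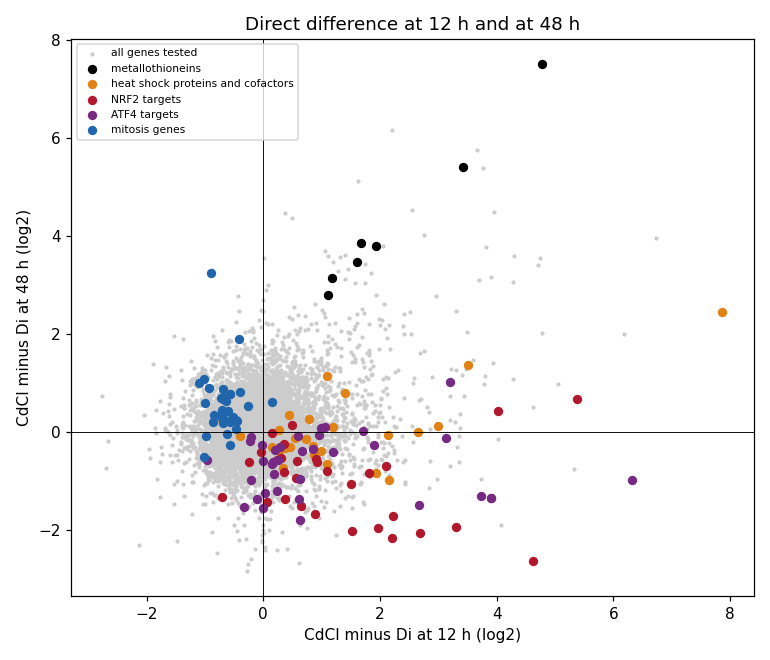
CdCl minus Di at 12 h on the horizontal axis and at 48 h on the vertical axis, both as differences of log2 means, for all genes tested (grey) and for 5 gene lists in colour. Metallothioneins lie high on both axes, most NRF2 and ATF4 targets lie to the right and below 0 on the vertical axis, and mitosis genes lie to the left and mostly above 0.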

How the data were processed

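The deposited log2 values were used as they stood: per the submitters' processing notes they were made with GCRMA, whose version is not given in the sources used here. The table holds 54675 probe sets, 41091 with 1 gene symbol, 1801 with several and 11721 with none, named through GEO's platform annotation; those with several were not named. For each of 19775 genes 1 probe set was kept, the one whose mean over the whole series was highest. A gene was tested when it exceeded log2 4 on at least 3 of the 18 arrays of CdCl, Di and their shared controls at 12 and 48 h. Group means were fitted with limma 3.58.1 in R 4.3.3 with empirical Bayes moderation, and p was adjusted by Benjamini-Hochberg over all 11045 genes. The number of arrays limits the precision. The fit was tested on simulated data. No 2 arrays were identical.

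The named genes were the 12 largest called differences each way with groups that do not overlap, up to 4 called members per list, up to 2 members called against control in both compounds but not directly, the metallothioneins, and the 5 largest time differences each way. The members and lists were chosen with earlier results of these data known. Alternatives changed the filter, the probe set rule, normalization, the variance model and the arrays fitted. Tables and figures used Python 3.11.15, pandas 2.3.3, numpy 2.4.6 and matplotlib 3.10.9.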

Additional observations from a re-analysis of the deposited data

Results flagged for a closer look

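The difference between CdCl and Di at 12 h minus the same difference at 48 h passed limma's test (adjusted p under 0.05 over all genes) for 77 of the named genes; a positive value means that CdCl stood higher over Di at 12 h than at 48 h, in log2 units. The genes are flagged because the effect differs between the times, with separate cultures at each.

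Among metal genes the value was MT1M -2.72, MT1X -2.17, MT1G -1.98, MT1E -1.96, MT1F -1.85, MT1H -1.85, MT2A -1.69 and SLC30A2 -1.98, and 1.42 for SLC39A14. Heat shock genes had HSPA6 5.42, ZFAND2A 4.18, BAG3 2.88, DNAJB1 2.66, HSPA1L 2.15 and HSP90AB1 0.75. Antioxidant genes had AKR1B10 7.25, SLC7A11 5.26, HMOX1 4.72 and ABCC2 3.61. Genes of the ATF4 and endoplasmic reticulum lists had ATF3 7.31, STC2 5.04, PPP1R15A 2.19, ATF4 0.79, DNAJB9 2.16, HERPUD1 2.23, SDF2L1 1.76 and ERO1B 1.78. The hypoxia and glycolysis genes had ADM 3.44, NDRG1 3.46, HK2 2.87 and PDK1 2.26.

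Signalling, matrix and junction genes had MAFF 2.96, JUN 1.56, TNFAIP3 2.21, IFIT2 1.42, OAS3 -1.33, MMP10 4.08, MMP1 -1.73, SNAI2 3.63 and LLGL2 -2.29. Among genes of replication, mitosis and repair the value was BLM -2.48, FAM111B -2.39, E2F8 -1.61, MCM10 -1.24, AURKB -2.11, TOP2A -0.80, KIF20A -4.15 and DDB2 -1.16. The growth arrest, death and injury genes had GADD45A 2.08, PMAIP1 1.79, BAX -1.20 and HAVCR1 -0.91, the lysosome and autophagy genes had CTSL 1.95 and MAP1LC3B 1.37, the histone genes had H2AC6 3.00 and H2BC4 1.76 and the respiratory subunits had CYC1 -1.05 and ATP5MC1 -0.79.

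Other genes with a greater value at 12 h were CLIP4 6.08, MAP2 5.96, ELL2 4.11, ANKRD1 2.76, FILIP1L 2.76, SPINK1 1.30 and NR2F1-AS1 1.20. Those with a greater value at 48 h were CTHRC1 -4.17, SLC17A3 -4.08, SOCS2 -3.94, RAB39B -3.86, CCDC146 -3.49, DHRS11 -3.27, PSMB8-AS1 -1.94, OLFML2A -1.92, LINC00339 -1.82, CMPK2 -1.40, TMEM39B -0.86 and DCN -1.30. For DCN and MCM10 the value comes from 1 of several probe sets above log2 4, and those differ. The metallothionein transcripts other than MT1M were read by probe sets marked as shared.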

How the results depend on the processing

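The 3 arrays of each group bound the precision of every value, and readings near background or near the top of the array's scale limit the size of a difference. With the arrays of all 38 groups in 1 model, which pools the spread over other compounds, the called genes numbered 2001 for CdCl against Di at 12 h (4539 as reported), 2223 for CdCl against Di at 48 h, 1977 for the time difference, 2838 for CdCl against control and 47 for Di against control. The Di against control count was also 203 when only those groups were fitted and 776 without shared probe sets. Leaving out each array in turn gave 3717 to 4356 genes for CdCl against Di at 12 h and 599 to 1097 for Di against control. With only the CdCl and Di arrays at 12 h fitted, 3499 genes were called between them. With the replicate number as a replicate block 4362 genes were called at 12 h. Residuals of same-numbered arrays correlated between -0.274 and 0.160, and those of differently numbered arrays between -0.244 and 0.243. No pairing by number was seen, but 3 arrays per group are too few to settle whether the numbers pair the cultures.

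Of the named genes that were called at 12 h, 71 of 86 passed in every alternative that tested them. With all 38 groups in the model PSMD3, IL6, CXCL5, CCL2, ATP5MC1, MMP1, VCAM1, HAVCR1, CTHRC1, KIF20A, TXNIP, KRT8 and KRT18 no longer passed. With the mean of probe sets, dim ones included, several differences shrank by over 1.5 times, among them ATF3 (4.12), CLIP4 (3.30), FILIP1L (3.02), NR2F1-AS1 (1.56), PSMB8-AS1 (-1.27), HSPA1L (1.76), HERPUD1 (0.98), OAS3 (-0.58), MCM10 (-0.71), MVK (-0.56), HK2 (0.42), PDK1 (1.24) and SOCS2 (0.89), while JUN grew (1.90). Without shared probe sets HERPUD1 gave -0.0625 in the direct comparison, from a probe set that did not exceed log2 4 on 3 of the 6 arrays, which says nothing of its direction. MCM10 gave -0.04, MVK -0.59, DPP4 0.44, JUN 1.93 and TOP2A -0.71. The sign turned with the mean of probe sets for PDK1 in Di against control (0.415). List counts fell most with all 38 groups in the model: NRF2 targets 17, ATF4 targets 11, immediate early genes 7 and matrix genes 4 higher, and respiratory subunits 3 and proteasome subunits 1 lower. The causes were not tested.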
